A study of Mus musculus with 8 samples.

Results

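The genes for the proteins of the cytosolic ribosome were examined in endometrium of Thra1PV/+ and WT mice. Members were chosen by symbol: Rpl or Rps followed by a number, with at most one letter a, x, y or l, plus Rpsa, Rplp0, Rplp1 and Rplp2, leaving out symbols with -ps. This gave 83 of the 52325 rows of the count table. They comprise 30 genes of the small subunit, 46 of the large subunit and 7 paralogs with a symbol ending in l (Rpl3l, Rpl6l, Rpl10l, Rpl32l, Rpl39l, Rps4l and Rps27l).

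Endometrium was captured by laser from uterine sections of 4 female Thra1PV/+ and 4 WT mice at metestrus, and its mRNA was sequenced. Thra1PV/+ mice carry the PV mutation, a C-terminal frameshift, in 1 Thra allele at its own locus, so that every cell that uses the gene can make a dominant negative thyroid hormone receptor α1 beside the normal one. WT mice carry no mutated allele, and the ages of the mice are not in the labels used here. The libraries held 48787615 to 59814732 counts with a gene symbol.

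Each ribosome is built from ribosomal RNA and a single copy of most ribosomal proteins, made in near-equal amounts and assembled in the nucleolus. Ribosomal protein mRNAs are among the most abundant of any tissue, and most begin with a run of pyrimidines (C or T), the 5′ terminal oligopyrimidine motif, through which mTOR and LARP1 regulate their translation. Free RPL5 and RPL11 bind MDM2 and thereby stabilise p53 when ribosome assembly fails.

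The mouse genome holds many retrocopies of these genes, and the letters of some are the same as those of the member. The first 60 coding bases of 4 members are shown because another gene's transcript holds the identical coding sequence. Capitals mark the start codon.

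Rps12: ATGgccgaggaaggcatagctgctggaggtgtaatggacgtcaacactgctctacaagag
Rpl12: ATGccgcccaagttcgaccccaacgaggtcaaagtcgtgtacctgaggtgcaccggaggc
Rpl5: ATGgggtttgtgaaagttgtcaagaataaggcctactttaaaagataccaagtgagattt
Rps27: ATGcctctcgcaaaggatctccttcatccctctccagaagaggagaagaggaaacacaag

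All 399 coding bases of Rps12 stand unchanged in Rps12-ps3 (GRCm38, chromosome 19, 59322290 to 59322783). All 498 of Rpl12 stand in Gm10275 (chromosome 10, 29698746 to 29699380). The 894 coding bases of Rpl5 stand in Gm15500 (chromosome 7, 114705217 to 114706235), and the 255 of Rps27 in Rps27rt (chromosome 9, 114982366 to 114982739). The members themselves lie at 10:23785183 to 23787275 (Rps12), 2:32961559 to 32965345 (Rpl12), 5:107900502 to 107909005 (Rpl5) and 3:90212522 to 90213651 (Rps27). A read that lies within these coding bases cannot be told apart by its letters.

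The paralogs whose coding bases were compared here differ far more. Rpl6l, without an annotated coding sequence, was not compared in this way. Of the 31-base words of its transcript, 72.2% also occur in transcripts of Rpl6. For Rps27 and Rps27l, 61 of 255 coding bases differ (76.1% identical). For Rpl39 and Rpl39l, 23 of 156 differ (85.3% identical), and for Rpl10 and Rpl10l 98 of 645 differ (84.8% identical). The first 60 coding bases of the pairs with the most and the fewest differing bases per length in this stretch show the contrast. Capitals mark bases that differ within a pair.

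Rps27: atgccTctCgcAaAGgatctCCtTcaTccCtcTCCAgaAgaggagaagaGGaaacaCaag
Rps27l: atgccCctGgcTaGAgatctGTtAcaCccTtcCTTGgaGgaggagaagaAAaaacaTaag
Rpl39: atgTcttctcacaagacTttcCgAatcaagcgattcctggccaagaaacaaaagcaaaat
Rpl39l: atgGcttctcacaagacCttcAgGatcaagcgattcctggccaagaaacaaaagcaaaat

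Of these 60 bases, 18 differ between Rps27 and Rps27l and 4 between Rpl39 and Rpl39l.

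Ribosomal protein genes held 7.38, 6.81, 7.53 and 8.42% of the counts of Thra1PV/+ libraries 1 to 4, and 8.40, 9.34, 6.05 and 6.65% of those of WT libraries 1 to 4. The mean was 7.53% ± 0.668 (SD, n = 4) in Thra1PV/+ and 7.61% ± 1.53 (SD, n = 4) in WT endometrium. All 4 Thra1PV/+ values lay between the lowest and the highest WT value, so the genotypes overlapped completely. WT libraries 1 and 2 were high and WT libraries 3 and 4 low. The small subunit genes took 3.12% ± 0.266 in Thra1PV/+ and 3.16% ± 0.697 in WT libraries (SD, n = 4 each), and the large subunit genes took 4.41% ± 0.401 and 4.44% ± 0.830. In bulk samples, fewer cells of a type and less RNA per cell cannot be told apart.

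**Figure D1:**
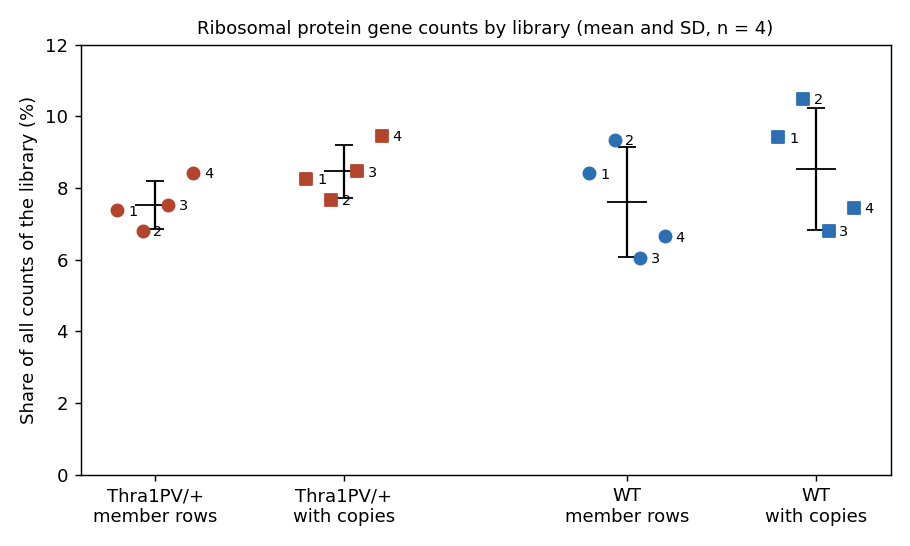
Share of all counts of a library (%, y axis) held by the member rows (circles) and by the member rows plus their near-identical copies (squares), for 4 Thra1PV/+ (red) and 4 WT (blue) libraries numbered by replicate; bars give the mean and SD. The Thra1PV/+ shares of the member rows, 6.81 to 8.42%, lie inside the WT range of 6.05 to 9.34%.

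No ribosomal protein gene passed the test between the genotypes. Of 83 members, 79 had enough counts to be tested. A call needed at least a 2-fold change and an adjusted p-value no higher than 0.1 (edgeR quasi-likelihood test, Benjamini-Hochberg over 18147 genes). By this rule 0 of 79 members were called higher in Thra1PV/+, against 0.926% of all tested genes, and 0 were called lower, against 0.0661%. Without the fold threshold 0 of 79 passed, against 1.04% of all genes. At an unadjusted p-value under 0.05, 0 members were higher and 0 lower, where 5.04% and 4.73% of all genes were. DESeq2 also gave 0 members at an unadjusted p-value under 0.05, and limma with quality weights gave 1 (Rpl3l). Every member had overlapping genotypes. The count of members whose 4 libraries of one genotype all lay above those of the other was 0 in each direction, against 3.54% of all genes higher and 2.51% lower in Thra1PV/+. The lowest p-value of any member was 0.0738 before and 0.570 after adjustment, both for Rpl5.

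The spread between libraries was small enough to give narrow limits. Of the 76 tested members other than paralogs, 75 had a 95% interval of the log2 fold change inside 2-fold in either direction, and 64 had one inside 1.5-fold. Their log2 fold changes, as Thra1PV/+ minus WT, ran from -0.31 (Rpl5) to 0.22 (Rpl10), and 69 lay within 0.2 of 0. Only the interval of Rps27, from -1.20 to 0.93, reached past 2-fold. The median SD of log2 CPM (counts scaled to a common library size by TMM) within a genotype was 0.17 for the 71 of these members whose mean log2 CPM reached 8, and 0.36 for the 463 other genes at that level.

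**Figure D2:**
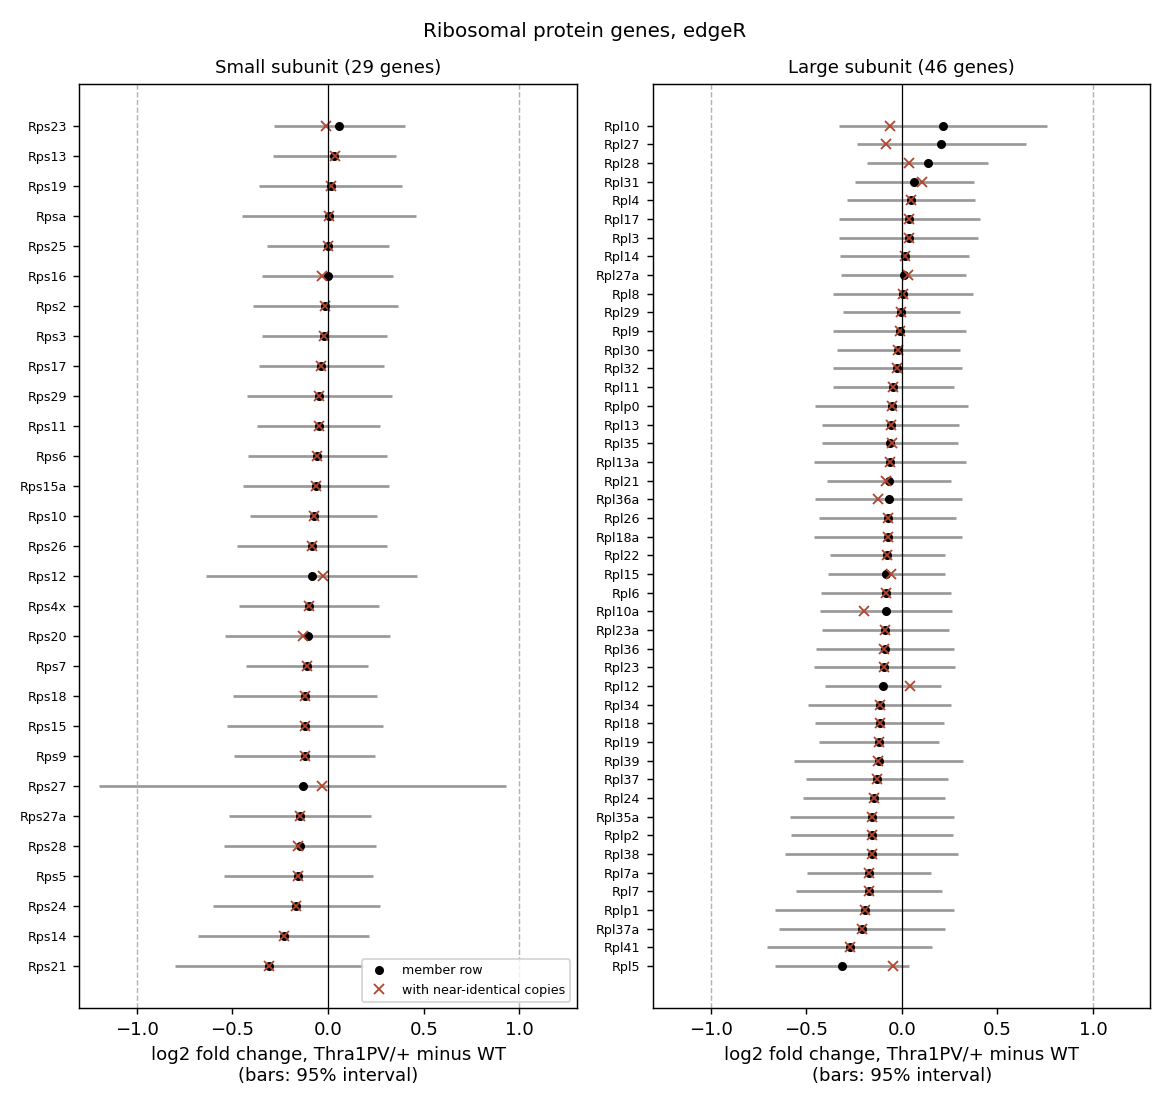
Log2 fold change of 75 small and large subunit genes (x axis, Thra1PV/+ minus WT) from the member row (black points, grey bars: 95% interval) and after adding near-identical copies (red crosses); dashed lines mark 2-fold. Of the 75 intervals plotted, 74 lie inside the dashed lines, and only that of Rps27 crosses one.

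The median log2 fold change of the 79 tested members was -0.08, beside -0.05 over all tested genes. Of the members 64 had a value below 0 and 15 above. Over all genes 43.1% of values were above 0, against 19.0% of the members. The small subunit median was -0.08, with 26 of 30 values below 0, and the large subunit median was -0.07, with 36 of 46 below 0. This lean towards negative values was gone without some single libraries and larger without another. The median was 0.02 without Thra1PV/+ replicate 1, 0.01 without WT replicate 1 and -0.0002 without WT replicate 2, and -0.13 without WT replicate 4.

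The members moved together from library to library. After each gene was centred on its own mean, the median over the 76 members was -0.18, -0.11, 0.05 and 0.10 on the log2 CPM scale in Thra1PV/+ libraries 1 to 4, and 0.15, 0.19, -0.10 and -0.11 in WT libraries 1 to 4. Thra1PV/+ library 1 was the lowest of all 8 for 45 of the 76 members, and WT libraries 1 and 2 together were the highest for 62. Over all tested genes Thra1PV/+ library 1 was the lowest for 14.1%, WT library 1 the highest for 19.1% and WT library 2 the highest for 14.6%. The low place of Thra1PV/+ library 1 held on the TMM scale, where its scaling factor was 1.12 and that of WT library 3 was 0.840. By share of counts WT library 3 was the lowest, at 6.05%, against 7.38% for Thra1PV/+ library 1. By share of TPM the members held 18.9, 16.4, 17.3 and 18.8% in Thra1PV/+ and 19.9, 21.3, 14.9 and 16.2% in WT libraries. This put Thra1PV/+ library 1 below WT libraries 2 and 1 and above the rest. The deposited TPM had nearly the same sorted values in every library, so this share depends on how the members rank among the genes.

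The levels of cell type markers differed between and within genotypes. Markers of squamous epithelium summed to 3339 to 5256 CPM in Thra1PV/+ and 18.1 to 122 CPM in WT libraries, and 11 of the 13 tested were called higher. None of the 14 squamous markers was at 0 in all libraries. Endometrial stroma markers summed to 6254 CPM in Thra1PV/+ library 1, to 5718 and 6328 CPM in WT libraries 1 and 2, and to 798 to 2294 CPM in the other 5. All 13 stroma markers were detected. Simple and glandular epithelium markers, 13 of 14 in the table and none at 0 throughout, summed to 5036 to 6962 CPM in those 3 libraries and to 12721 to 22353 CPM in the others. These 3 libraries had the 3 highest shares of TPM in the members, but Thra1PV/+ 1 (18.89%) was barely above Thra1PV/+ 4 (18.80%). By share of counts Thra1PV/+ 1 (7.38%) lay below Thra1PV/+ 3 (7.53%) and Thra1PV/+ 4 (8.42%). On the TMM-scaled CPM scale WT 1 and 2 were the highest and Thra1PV/+ 1 the lowest, so the place of Thra1PV/+ 1 depended on the scaling. Smooth muscle markers, all 10 detected, summed to 147 to 689 CPM in Thra1PV/+ and 576 to 13221 CPM in WT libraries. The part of cell makeup in the members' levels was not tested.

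**Figure D3:**
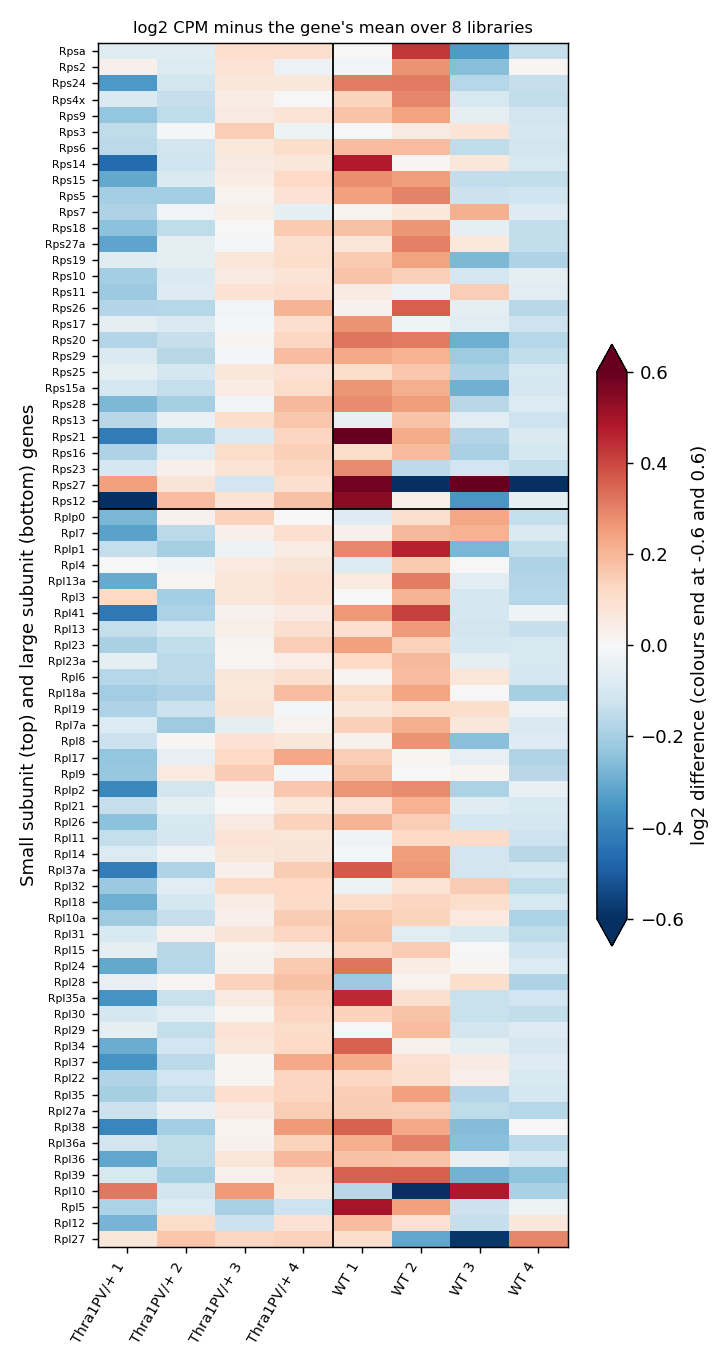
Log2 TMM-scaled CPM of 75 members (rows; small subunit above the line, large below, each ordered by mean CPM) minus the gene's mean over the 8 libraries (columns). Most rows are blue in Thra1PV/+ 1 and red in WT 1 and WT 2, while Rps27, Rpl10 and Rpl27 follow other patterns.

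Thra itself was at 127, 45.8, 67.7 and 79.9 CPM in the Thra1PV/+ libraries and at 110, 104, 50.3 and 47.4 CPM in the WT libraries. The genotypes overlapped, and gene counts merge the PV and the normal transcript, so they do not check the genotype.

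Among the most abundant members, Rplp0, the acidic protein at the base of the stalk that recruits elongation factors, was at 2364, 2913, 3156 and 2870 CPM in the Thra1PV/+ libraries and at 2713, 3060, 3366 and 2590 CPM in the WT libraries. The log2 fold change was -0.05 (95% interval -0.45 to 0.35). Rplp1, which forms the stalk with Rplp2, was at 1689, 1622, 1827 and 1925 CPM in Thra1PV/+ and at 2278, 2573, 1543 and 1683 CPM in WT libraries. The highest WT values came from libraries 1 and 2, and the other WT libraries fell among or below the Thra1PV/+ ones. Rplp2 was at 1055 ± 166 CPM in Thra1PV/+ and 1175 ± 187 CPM in WT libraries (SD, n = 4 each).

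Rpsa, which also serves as a laminin-binding protein, was at 2054, 2053, 2311 and 2318 CPM in Thra1PV/+ and at 2165, 2896, 1703 and 1953 CPM in WT libraries. The WT range enclosed all Thra1PV/+ values, with a log2 fold change of 0.00 (interval -0.45 to 0.46). Rps2 was at 2111 ± 105 and 2133 ± 319 CPM, and Rpl4 at 1848 ± 61.4 and 1786 ± 180 CPM, in Thra1PV/+ and WT libraries (SD, n = 4 each). For each of the 3 genes the WT libraries spread more widely than the Thra1PV/+ libraries. Rpl7 and Rps24, also among the 8 members with the highest CPM, had log2 fold changes of -0.17 and -0.17.

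Rps6, the S6 kinase substrate that reports mTOR activity at the protein level, was at 1257, 1304, 1471 and 1516 CPM in Thra1PV/+ and at 1600, 1603, 1266 and 1303 CPM in WT libraries. Its values overlapped, with an interval of -0.42 to 0.31. Rps19, mutated in Diamond-Blackfan anaemia, was at 958 ± 59.1 CPM in Thra1PV/+ and 950 ± 163 CPM in WT libraries (SD, n = 4 each), a log2 fold change of 0.01. Rpl11 (-0.04, interval -0.36 to 0.27) and Rpl22 (-0.08, interval -0.38 to 0.23) had narrower intervals. Rps27a, which is made fused to ubiquitin, was at 992 ± 117 CPM in Thra1PV/+ and 1097 ± 140 CPM in WT libraries.

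At a mean log2 CPM of at least 2, the lowest fold changes belonged to Rpl5, Rps21, Rpl41, Rps14, Rpl37a and Rplp1. Rpl5, which binds 5S ribosomal RNA, was at 71.2, 76.6, 71.0 and 74.5 CPM in Thra1PV/+ and at 114, 96.2, 74.1 and 79.5 CPM in WT libraries. WT libraries 1 and 2 stood above the rest, while WT library 3 fell inside the Thra1PV/+ range. The log2 fold change was -0.31 ± 0.15 (SE), with an adjusted p-value of 0.570 (edgeR). With the counts of its copies, most of them in Gm15500, Rpl5 was at 1528, 1610, 1864 and 1717 CPM in Thra1PV/+ and at 2017, 1641, 1748 and 1528 CPM in WT libraries. The log2 fold change was then -0.05, so the value of the member row did not carry over to the summed counts.

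Rps21, a small subunit protein, was at 445, 518, 560 and 652 CPM in Thra1PV/+ and at 914, 695, 527 and 561 CPM in WT libraries. Rpl41, the shortest member with 78 coding bases, was at 1106, 1307, 1519 and 1544 CPM in Thra1PV/+ and at 1782, 1980, 1387 and 1464 CPM in WT libraries. In both genes WT libraries 1 and 2 were the highest and WT libraries 3 and 4 lay within the Thra1PV/+ range. The log2 fold changes were -0.31 ± 0.22 and -0.27 ± 0.19 (SE), with adjusted p = 0.701 and 0.702 (edgeR). Rps14 (-0.23), Rpl37a (-0.21) and Rplp1 (-0.19) followed, with adjusted p-values of 0.764, 0.788 and 0.827 (edgeR).

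At the same level the highest fold changes belonged to Rps4l, Rpl10, Rpl27, Rpl28, Rpl31 and Rps23. Rpl10, needed for joining of the subunits, was at 354, 264, 339 and 297 CPM in Thra1PV/+ and at 253, 182, 396 and 249 CPM in WT libraries. Rpl27 was at 34.1, 36.6, 35.5 and 35.8 CPM in Thra1PV/+ and at 35.1, 26.3, 21.7 and 39.9 CPM in WT libraries. The Thra1PV/+ values of Rpl27 were nearly alike and lay inside the WT range. Log2 fold changes were 0.22 ± 0.24 for Rpl10 and 0.21 ± 0.19 for Rpl27 (SE). Once copies were added they were -0.06 and -0.08, and that of Rps23 went from 0.06 to -0.01, so the sign of these 3 depended on which rows were summed. Rpl28 (0.13 alone, 0.04 with copies) and Rpl31 (0.06 alone, 0.11 with copies) stayed above 0.

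Rps27 had the largest spread of the subunit genes. Its row was at 73.3, 65.2, 57.1 and 66.0 CPM in Thra1PV/+ and at 92.1, 37.9, 131 and 25.4 CPM in WT libraries. The 4 WT libraries spanned a wider range than the 4 Thra1PV/+ libraries, and WT 4 was the lowest and WT 3 the highest of all 8. The copy Rps27rt, a retrogene annotated as protein coding, was at 548, 708, 753 and 763 CPM in Thra1PV/+ and at 764, 721, 665 and 670 CPM in WT libraries. The sum of Rps27 and its copies was at 621, 773, 810 and 830 CPM in Thra1PV/+ and at 856, 759, 796 and 695 CPM in WT libraries. The SD of log2 CPM within a genotype was 0.78 for the row of Rps27 and 0.16 for the sum. For Rps12 this SD was 0.38 for its own row and 0.28 for the sum.

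Rps12, at 32.4, 56.4, 52.4 and 56.0 CPM in Thra1PV/+ and 72.0, 50.7, 38.9 and 47.8 CPM in WT libraries, was second to Rps27 in spread among the subunit genes. The row of Rps12-ps3 was assigned far more counts. It was at 870, 1129, 1181 and 1243 CPM in Thra1PV/+ and at 1174, 1469, 904 and 956 CPM in WT libraries. As reads in the shared coding bases cannot be told apart, the rows do not show which gene is transcribed more. Thra1PV/+ library 1 was the lowest of its genotype in both rows, and the genotypes overlapped in both.

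Shared letters were the rule among the members. Over the members with a coding sequence in the annotation, 80 in all, the median share of coding 31-base words that also occurred in transcripts of other genes was 96.3%, and 31 members had every such word elsewhere. At least 50% of the coding words were found in a single other gene for 67 members, which gave 268 copies, 241 of them annotated as processed pseudogenes. For 8 members the copies held more counts than the member row. The member row held 4.34% of the summed counts for Rps12, 4.51% for Rpl12, 4.83% for Rpl5, 7.06% for Rpl27, 8.94% for Rps27, 21.8% for Rpl10, 40.9% for Rpl27a and 46.0% for Rps23. Among the 76 members other than paralogs, these 8 and Rpl28 had the lowest TPM, a level per transcript length.

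In TPM, which is per length and is compared here as the mean over all 8 libraries, the rows of the 76 members ran from 63.5 (Rpl5) to 9446 (Rplp1), a 149-fold range. The median TPM was 2341 for the small and 1859 for the large subunit. The lowest 5 rows were Rpl5 at 63.5, Rpl12 at 79.3, Rpl27 at 91.1, Rps12 at 151 and Rps27 at 418 TPM. With the TPM of the copies added, these 5 members were at 2152, 2978, 1749.7, 4515 and 4857 TPM, among the rest of the ribosomal proteins. The range over the 76 members then narrowed to 8.40-fold, from 1124 (Rpl29) to 9447 TPM (Rplp1), and the ratio of the upper to the lower quartile went from 1.89 to 1.57. The members with the highest TPM were Rplp1, Rpl41 (5946) and Rps29 (5465).

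**Figure D4:**
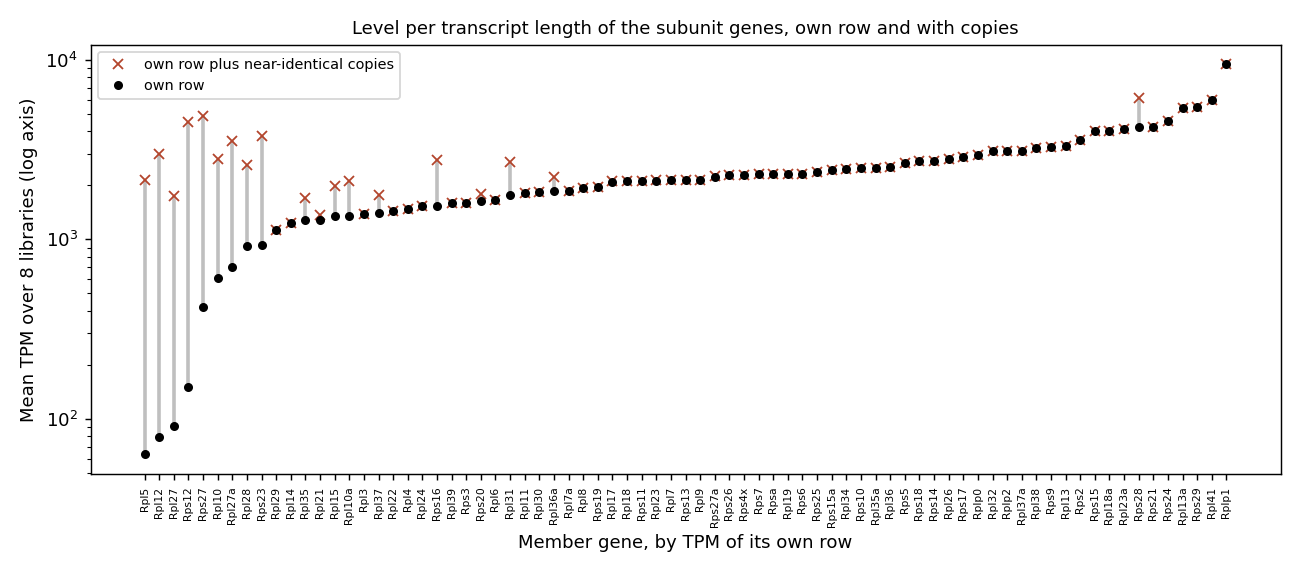
Mean TPM over 8 libraries (log axis) of 75 members, ordered by the TPM of the member row (black), with the TPM after adding near-identical copies (red crosses). The 5 lowest rows, 63.5 to 418 TPM, rise to between 1749.7 and 4857 TPM with copies.

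Adding the copies changed no call. With each member's copies summed into it, 0 of 79 members were called, 0 had an unadjusted p-value under 0.05 by edgeR, and the median log2 fold change was -0.07. The summed members held 8.46% ± 0.742 of the counts in Thra1PV/+ and 8.54% ± 1.71 in WT libraries (SD, n = 4 each). The values of the subunit genes then ran from -0.31 to 0.11 on the log2 scale.

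The paralogs covered a wide range of levels, from Rps27l at a mean of 84.8 CPM to Rpl10l at 0. Rps27l, a p53-induced paralog, was at 73.6, 77.1, 81.0 and 91.2 CPM in Thra1PV/+ and at 101, 68.5, 79.4 and 107 CPM in WT libraries, with a log2 fold change of -0.14. Its mean level was 369 TPM, against 418 TPM for the row of Rps27 and 4857 TPM for Rps27 with copies. Rps4l, which the GENCODE annotation classes as a transcribed processed pseudogene, was at 19.7, 13.4, 23.2 and 23.3 CPM in Thra1PV/+ and at 10.8, 21.5, 14.1 and 13.8 CPM in WT libraries. WT library 2 was high and Thra1PV/+ library 2 low, and the log2 fold change was 0.40 ± 0.26 (SE; adjusted p = 0.682 by edgeR).

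Rpl3l, the paralog of Rpl3 known from striated muscle, was at 0.422, 0.934, 0.429 and 0.473 CPM in Thra1PV/+ and at 0.477, 2.19, 0.975 and 1.005 CPM in WT libraries. WT library 1 lay among the Thra1PV/+ libraries and the other 3 WT libraries lay above them all. The log2 fold change was -1.04 ± 0.52 (SE), with an adjusted p-value of 0.582 (edgeR). Rpl10l, a testis paralog, had 0 counts in all 8 libraries. Rpl39l, also known from testis, had 40 counts in Thra1PV/+ library 3 and at most 7 in any other, and was not tested, like Rpl6l and Rpl32l.

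The start of the transcript could be read for 61 members in the RefSeq promoter table (GRCm38.p6), of 83. A run of at least 8 bases that were each C or T, searched on the gene's strand from 10 bases before to 20 after the annotated start, stood in 24 of these 61 genes (39.3%) and in 13.0% of the 27025 genes of the table. The run could lie anywhere in the window, and shorter runs were not counted. The 39.3% is therefore not the share of members with the motif. The windows of Rpl41, Rpl5 and Rps21 are shown because these had the lowest fold changes among the subunit genes with a promoter entry, and those of Rps6, Rps24, Rplp2, Rpl28, Rps27 and Rps12 because they are described above and hold a run. Capitals mark the run, and base 11 is the annotated start.

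Rpl41: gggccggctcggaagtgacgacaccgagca
Rpl5: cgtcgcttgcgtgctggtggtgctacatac
Rps21: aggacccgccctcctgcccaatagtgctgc
Rps6: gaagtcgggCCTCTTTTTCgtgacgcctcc
Rps24: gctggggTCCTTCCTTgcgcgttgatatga
Rplp2: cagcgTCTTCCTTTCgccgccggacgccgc
Rpl28: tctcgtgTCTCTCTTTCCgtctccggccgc
Rps27: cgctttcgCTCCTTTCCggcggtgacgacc
Rps12: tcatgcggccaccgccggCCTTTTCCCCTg

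The windows of Rpl41 (10:128549149 to 128549178, minus strand), Rpl5 (5:107900518 to 107900547, plus strand) and Rps21 (2:180257369 to 180257398, plus strand) held no run of this length, although Rps21 holds a run of 7. The runs of the other windows were 9 to 11 bases long. Annotated starts can lie some bases from the one that is used, so a window without a run says only that these letters are not in it. Rps21 and Rps24 have a second annotated start without a run.

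Genes of related processes were also without calls. Of the ribosomal proteins and their relatives outside the symbol rule, 11 of 12 were tested and 0 passed, with Rpl22l1 at 129 ± 5.96 CPM in Thra1PV/+ and 159 ± 33.1 CPM in WT libraries. Of 39 translation factors 0 passed. Tpt1, a translation-linked mRNA with a pyrimidine-rich start, was at 3788, 4354, 4380 and 4991 CPM in Thra1PV/+ and at 6213, 5215, 6558 and 5505 CPM in WT libraries. Its genotypes did not overlap, but the adjusted p-value was 0.503 (edgeR; log2 fold change -0.42 ± 0.18).

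Of 57 ribosome biogenesis genes 0 passed, with a median log2 fold change of -0.01. Mdn1, an ATPase of large subunit maturation, had the lowest p-value (0.39 ± 0.16, adjusted p = 0.469 by edgeR). Of 27 tested subunits and factors of RNA polymerases I and III 0 passed, with a median of -0.08. Polr3g had a log2 fold change of 0.68 ± 0.27 (adjusted p = 0.461, edgeR). Of 27 regulators of ribosomal protein mRNAs 0 passed. Deptor, an inhibitor of mTOR, came nearest. It was at 14.3, 15.5, 15.8 and 18.4 CPM in Thra1PV/+ and at 32.4, 26.8, 41.4 and 23.5 CPM in WT libraries, all 4 WT libraries above all Thra1PV/+ libraries. The log2 fold change was -0.95 ± 0.20, with an adjusted p-value of 0.105 (edgeR).

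Of 20 p53 targets 0 passed. Their median log2 fold change was 0.01, with 11 values above and 9 below 0. At an unadjusted p-value under 0.05, 4 were higher in Thra1PV/+ and 0 lower, where 5.04% and 4.73% of all genes were. Gtse1 (2.11 ± 0.55, adjusted p = 0.219) and Perp (1.74 ± 0.49, adjusted p = 0.272), both by edgeR, had the lowest p-values. Perp is also a desmosome gene of stratified epithelium, and squamous epithelium markers were higher in the same libraries. Proliferation markers had 19 of 19 values above 0 with a median of 1.20, and 0 passed. They summed to 299 to 783 CPM in Thra1PV/+ and 196 to 372 CPM in WT libraries, which overlapped.

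Mitochondrial ribosomal proteins, which belong to the other ribosome of the cell, had a lower median than the members. Of 77 genes 0 passed, and the median log2 fold change was -0.14, beside -0.08 for the members. A value below 0 was found for 69 of the 77, and for 10327 of all 18147 tested genes. At an unadjusted p-value under 0.05 (edgeR), 5 were lower in Thra1PV/+ and 0 higher, where 4.73% and 5.04% of all genes were. The 77 genes held 0.290% ± 0.0215 of the counts in Thra1PV/+ and 0.308% ± 0.0456 in WT libraries (SD, n = 4 each). Mrpl17 had the lowest p-value, at 54.2 ± 2.37 CPM in Thra1PV/+ and 67.8 ± 3.40 CPM in WT libraries. Its genotypes did not overlap, but the adjusted p-value was 0.326 (edgeR). The 43 tested pseudogenes named as copies of ribosomal protein genes had a median of -0.12, and 0 passed.

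**Figure D5:**
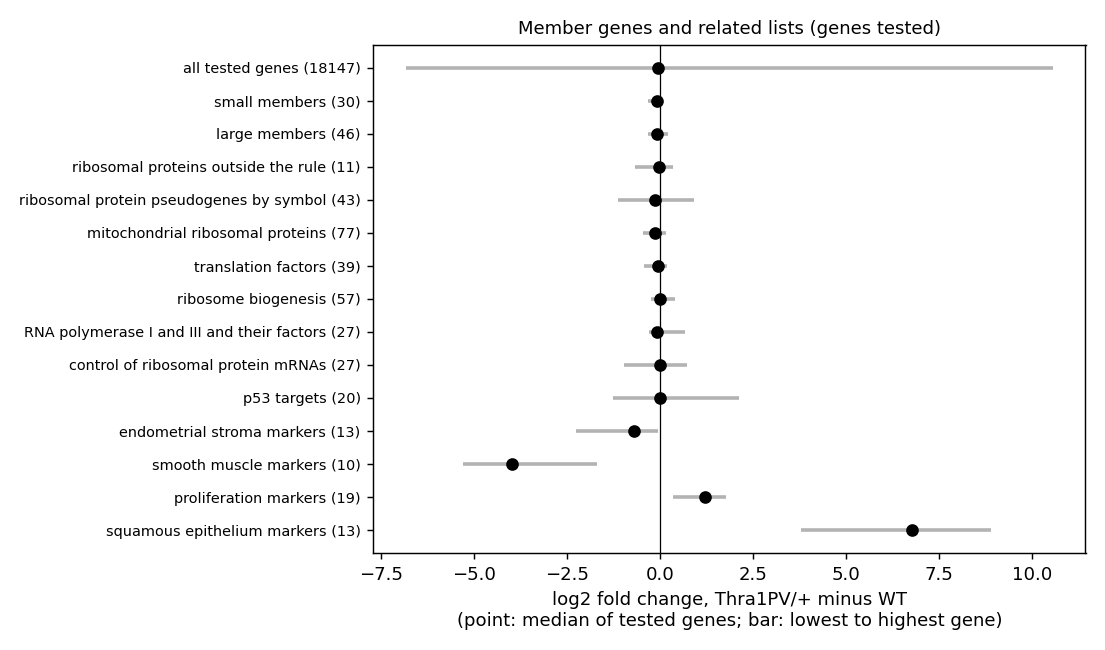
Median log2 fold change (points; Thra1PV/+ minus WT) with the lowest and highest gene (bars) of the members, related lists and cell type markers, with the number of genes tested. The members lie between -0.31 and 0.22 apart from the paralogs, which are not plotted here, while squamous epithelium markers lie between 3.80 and 8.91.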

How the data were processed

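Laser-captured endometrium of 4 Thra1PV/+ and 4 WT mice was analysed. The authors made stranded mRNA libraries, sequenced them as pairs, trimmed reads with Trimmomatic and quantified them with salmon for mm10; versions are not given in the sources used here. The deposited estimated counts per gene are not normalized and were rounded. The deposited TPM values had nearly the same sorted values in every library (quantile-normalized); 1 further TPM column belonged to no sample here and was not used. Rows without a symbol held at most 0.00897% of counts and stayed out.

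Genes passing filterByExpr (minimum count 10, minimum total 15) were scaled by TMM and tested for genotype alone with edgeR 4.0.16 in R 4.3.3, with a prior count of 2 for log2 CPM. Standard errors and 95% intervals follow from the F statistic. DESeq2 1.42.0 and limma 3.58.1 were alternatives. A copy was a gene whose GENCODE M21 transcripts share at least 50% of a member's coding 31-base words, assigned to the member sharing most. Scripts were tested on simulated data. Symbols and starts came from the reference tables. Counts cover sampling of reads, and each library is taken as 1 mouse. The text names the 8 members with highest CPM, the 6 highest and 6 lowest fold changes and the 3 largest spreads at a mean log2 CPM of at least 2, a set list of members, and 2 or 3 genes per related list with the lowest p; others were chosen after their values were seen. 1 gene that the rule names is not reported here, though it stays in counts and medians over the members. The members and lists were chosen with earlier results of these data known.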

Additional observations from a re-analysis of the deposited data

Results flagged for a closer look

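In groups of 4 libraries, 1 value can stand apart from the others by Dixon's criterion, which chance meets in about 1 group of 20; 60 groups were examined and 3 values met it. Rps12 was at 5.02 log2 CPM in Thra1PV/+ library 1, against 5.71 to 5.82 in the other libraries of that genotype. Rps23 was at 9.26 log2 CPM in WT library 1, against 8.82 to 8.86 in the other WT libraries. Rpl3l was at -0.041 log2 CPM in Thra1PV/+ library 2, against -1.12 to -0.97 in the others. Rps12 and Rps23 are among the members whose copies hold more counts than their own row, and Rpl3l was at 0.422 to 2.19 CPM over the 8 libraries.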

How the results depend on the processing

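No member was called, and 0 passed an adjusted p-value of 0.1, under any of the 19 alternatives, including each of the 8 fits without one library. Adding near-identical copies was chosen after seeing the data. The count of members at an unadjusted p-value under 0.05 was 1 with limma and quality weights and ranged from 0 to 2 when 1 library was left out (Rpl3l, Rps4l, Rpl10 and Rpl5). The median log2 fold change ranged from -0.13 to 0.02 when 1 library was left out and reached 0.03 in TPM, and the share difference, -0.08 percentage points, ranged from -0.60 to 0.50. No scaling gave a member with genotypes that do not overlap.

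Same-numbered libraries correlated at 0.27, -0.44, 0.34 and -0.16. These mixed signs do not settle whether the numbers pair the mice, and the main test used no pairing. With the replicate block 0 members had an unadjusted p-value under 0.05, the median was -0.08, and Rps27 went to 0.16.

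Of 532 values of the 28 named members under alternatives, 61 changed sign, from 14 members, none with a log2 fold change over 0.22 to begin with. The cause was not tested beyond the summed rows. Rps2 was 0.011 with DESeq2 size factors, 0.015 with upper quartile scaling, 0.044 by library size, 0.0092 with the minimum of 1 count, 0.014 in DESeq2, 0.0018 with limma weights and 0.11 in TPM with either pseudocount (1 or 0.1). By library size Rpl11 was 0.029, Rplp0 0.020, Rps27 0.0027 and Rps6 0.0030. With copies Rpl10 was -0.061, Rpl27 -0.084 and Rps23 -0.013. With limma weights Rpl11 was 0.048, Rpl22 0.0030, Rplp0 0.077, Rps12 0.057, Rps27 0.46 and Rps6 0.034. In TPM, with either pseudocount, Rpl11 was 0.060, Rpl22 0.066, Rplp0 0.052, Rplp1 0.047, Rps27 0.31 and Rps6 0.054. Without 1 library in turn the ranges were -0.091 to 0.043 for Rpl11, -0.13 to 0.018 for Rpl22, -0.0013 to 0.15 for Rpl4, -0.11 to 0.072 for Rplp0, -0.19 to 0.15 for Rps12, -0.050 to 0.13 for Rps19, -0.077 to 0.11 for Rps2, -0.42 to 0.35 for Rps27, -0.10 to 0.043 for Rps6 and -0.080 to 0.20 for Rpsa. With 4 libraries a genotype, differences smaller than the intervals given were not detectable.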
